A study of Mus musculus with 8 samples.

Results

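The 9 genes described here mark T lymphocytes (Cd3d, Cd3e, Cd3g, Cd4 and Cd8a) or B lymphocytes and their plasma cell descendants (Cd79a, Cd79b, Ms4a1 and Jchain). They were chosen by name as cell type markers, and were found on the array by matching each probe's transcript accession to the mouse RefSeq symbol. All 9 were found, with 10 probes, and all 9 were among the 42982 features that entered the test between the genotypes. The arrays measured liver RNA of male mice of the obesity-prone New Zealand Obese (NZO) background, all fed a diet with 45% fat. One group is labelled Ltg/NZO.5.3N/N (NN, n = 4 arrays, samples 1, 4, 6 and 7) and the other Ltg/NZO.5.3N/B (NB, n = 4 arrays, samples 2, 3, 5 and 8). Both groups are recombinant congenic lines from a cross of NZO/HiBomDife with C57BL/6J, and what sets them apart is 5.3 Mbp of chromosome 18. Week 5 is given by the labels both as the end of feeding and as the age. None of the 9 genes lies on chromosome 18.

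T cells recognise antigen through a receptor that signals by way of the CD3 chains, and the co-receptors CD4 and CD8 divide them into helper and cytotoxic cells. B cells signal through CD79A and CD79B, which flank the membrane immunoglobulin, and carry CD20, the product of Ms4a1. Plasma cells lose much of this surface machinery and make the J chain, which joins immunoglobulins into polymers for secretion. The liver holds resident and circulating lymphocytes of both kinds, including natural killer T cells that carry CD3, and some mouse dendritic cells carry CD4 or CD8A. In RNA of a whole liver piece, fewer cells of a type and less of a transcript in each cell cannot be told apart.

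Each value rests on the signal of 1 short DNA probe, and the probe sequences taken from the scanner files are shown because they set what was measured for each gene. They are 47 to 56 bases long and are written 5′ to 3′ as the files give them. The first 30 bases of 9 of the 10 are given, and no part is marked by capitals.
Cd3d: gtgtcatcttcattgacctcatcgcaactc
Cd3g: agtgtggtgtttgcagagtgccccctactg
Cd4, brightest probe: tgagagtcttgatctgtttctcatagatcc
Cd4, second probe: aagttctctccatgtccaacctaagggttc
Cd8a: ccctctcccatgtctaaacatgagacttgg
Cd79a: catatgtctgactccagcatccctgcctcc
Cd79b: cattccaaggatcacccaaagcctacagcc
Ms4a1: ttagagagcttccaagacacatagttaccc
Jchain: gagaatatctctgatcccacctccccactg
None of the 10 probes shared a stretch of more than 15 bases with any other probe on the array. Their GC content ran from 43.1% for Cd3g to 59.6% for Cd79a, the latter above that of 97.0% of all probes.

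Values are log2 signal relative to the 75th percentile of the array, so that 0 is the level of that percentile and each unit is a doubling. The share of probes well above background ran from 74.4% to 79.6% over the arrays, no probe was saturated, and all 10 hepatocyte marker genes were well above background on all 8 arrays. Array NB 8 had a mean correlation of 0.990 with the other arrays, taken across features, against 0.993 to 0.994 for the rest. The brightest probes of all 9 marker genes were well above background on all 8 arrays. All 8 arrays lay on 1 slide, and each slide column held 1 array of each genotype. Whether each sample came from its own animal is not said outright by the labels, and the p-values then cover only the spread among these 8 samples, which may be technical.

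None of the T and B lymphocyte markers passed the test between the genotypes, and no difference exceeded 1.12-fold in either direction. Of the 9 genes, 0 were called by limma at an adjusted p under 0.05 over all features, where 0.00698% of features were called, and 0 had an unadjusted p under 0.05, where 1.69% of features did. The NB and NN values of each gene overlapped. Of all features, 1.09% had groups that did not overlap, 0.421% with all NB arrays above and 0.665% with all NB arrays below. Of the 5 T cell genes 3 had a positive log2 fold change (NB minus NN) and 2 a negative one, and the 4 B cell genes split 2 and 2, where 45.9% of all features were positive and 54.1% negative. The median log2 fold change was 0.0581 for the T cell genes and −0.00508 for the B cell genes, beside −0.00971 over all features. Each of the 9 differences was smaller than the SD between arrays of the same genotype.

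**Figure D1:**
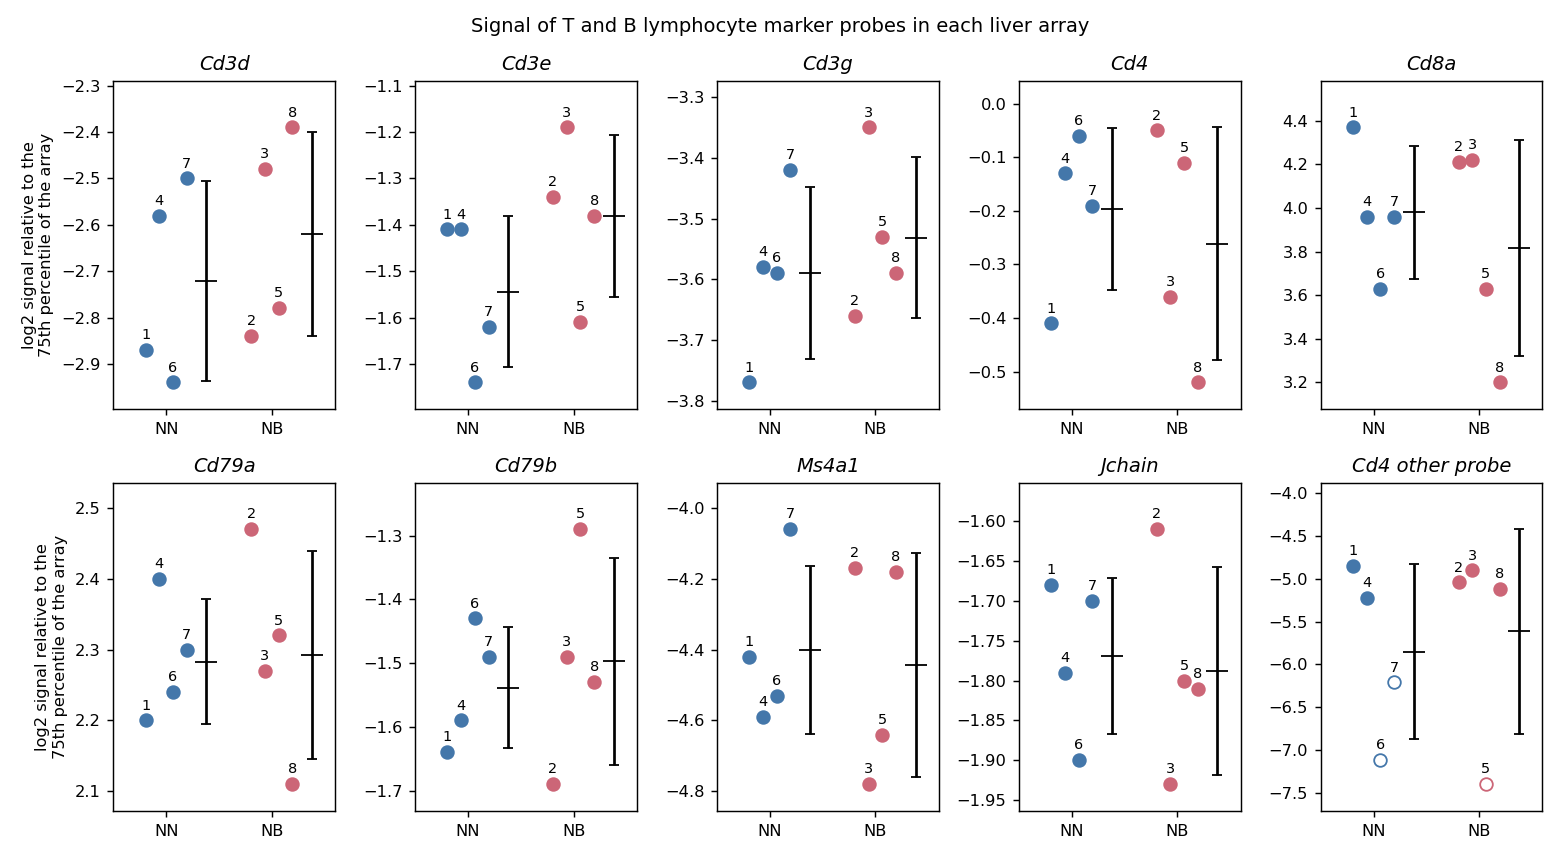
Log2 signal relative to the 75th percentile of the array (vertical axis, a separate scale per panel) in the 4 NN (blue) and 4 NB (red) arrays, with sample numbers beside the points and the mean ± SD as a bar. Open circles are values not well above background, which occurred only for the second probe of Cd4, and the 2 genotypes overlap in every panel.

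The 3 CD3 chains, the signalling subunits of the T cell receptor, were followed first. Cd3e, which encodes the epsilon chain present in every CD3 dimer, read −1.41, −1.41, −1.74 and −1.62 on NN 1, 4, 6 and 7, and −1.34, −1.19, −1.61 and −1.38 on NB 2, 3, 5 and 8. NB 2, 3 and 8 lay above all NN arrays, and NB 5 lay within their range. The means were −1.38 ± 0.17 in NB and −1.54 ± 0.16 in NN (SD, n = 4 each), a 1.12-fold higher level in NB with a 95% confidence interval of 0.932 to 1.35 (log2 fold change 0.16, SE 0.117, limma adjusted p = 1). Among the 9 genes Cd3e had the smallest unadjusted p.

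Cd3d, the delta chain, read −2.87, −2.58, −2.94 and −2.50 on NN 1, 4, 6 and 7, and −2.84, −2.48, −2.78 and −2.39 on NB 2, 3, 5 and 8. Each genotype held 2 lower and 2 higher arrays, and the means of −2.62 ± 0.22 in NB and −2.72 ± 0.22 in NN (SD, n = 4 each) differed 1.07-fold (95% interval 0.857 to 1.34, log2 fold change 0.10, SE 0.142, limma adjusted p = 1). Cd3g, the gamma chain, read −3.77, −3.58, −3.59 and −3.42 on the NN arrays in the same order, and −3.66, −3.35, −3.53 and −3.59 on the NB arrays. Its groups interleaved, with NB 3 highest and NN 1 lowest, at −3.53 ± 0.13 in NB and −3.59 ± 0.14 in NN (SD, n = 4 each). The level in NB was 1.04-fold that in NN (95% interval 0.887 to 1.22, log2 fold change 0.06, SE 0.102, limma adjusted p = 1), and the sign turned when NN 1 or NB 3 was left out.

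Within the 4 slide columns, each with 1 array of either genotype, Cd3d was higher in NB in all 4, by 0.0356 to 0.16 on the log2 scale. Cd3e was also higher in NB in all 4 columns, by 0.0681 to 0.242, and Cd3g in 3 of 4. Of the 9 genes these 2 had the same sign in every column, as had 9.08% of all features, 3.84% with NB higher. With the column as a block the log2 fold changes kept their values and had smaller errors, 0.10 (SE 0.0695) for Cd3d and 0.16 (SE 0.0731) for Cd3e, each with a limma adjusted p of 1. The smaller error was not particular to these genes. It also fell for Ms4a1 (0.175 to 0.0987), Cd8a (0.249 to 0.171), Cd79b, Cd3g and Jchain, and rose for Cd4 (0.126 to 0.129) and Cd79a (0.094 to 0.102). The 3 genes stand next to each other on chromosome 9 in the RefSeq gene table, in the order Cd3g, Cd3d, Cd3e. They did not share an order of arrays, since Cd3d was highest on NB 8, and Cd3e and Cd3g on NB 3, while the lowest array was NN 6 for Cd3d and Cd3e and NN 1 for Cd3g.

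The co-receptor genes had negative log2 fold changes, neither of which passed the test. Cd4, which encodes the co-receptor of helper T cells, read −0.41, −0.13, −0.06 and −0.19 on NN 1, 4, 6 and 7, and −0.05, −0.36, −0.11 and −0.52 on NB 2, 3, 5 and 8 with its brightest probe. The lowest array was NB 8 and the highest NB 2, so the NB values spanned the whole NN range. The means were −0.26 ± 0.22 in NB and −0.20 ± 0.15 in NN (SD, n = 4 each), a ratio of 0.956 (95% interval 0.784 to 1.17, log2 fold change −0.07, SE 0.126, limma adjusted p = 1). Without NB 8, the array with the lowest correlation, the log2 fold change was 0.0197.

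The second probe of Cd4, designed to a predicted transcript, gave another picture of the arrays. It stood well above background on 5 of 8 arrays, at −4.85 and −5.22 on NN 1 and 4 and at −5.04, −4.90 and −5.12 on NB 2, 3 and 8. On NN 6, NN 7 and NB 5 it read −7.12, −6.21 and −7.40, not well above background. NN 6, NN 7 and NB 5 all lay in slide columns 3 and 4, which also held NB 8. NN 1 was thus the highest array by the second probe and the second lowest by the brightest probe. A fold change from this probe is given only among the processing alternatives below, where its sign is not well measured. The probe was examined after its values were seen.

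Cd8a, which encodes the alpha chain of the cytotoxic T cell co-receptor, varied most among the 9 genes. It read 4.37, 3.96, 3.63 and 3.96 on NN 1, 4, 6 and 7, and 4.21, 4.22, 3.63 and 3.20 on NB 2, 3, 5 and 8. The highest array, NN 1, was 2.25-fold above the lowest, NB 8, and the genotypes overlapped between 3.63 and 4.22. The means were 3.82 ± 0.49 in NB and 3.98 ± 0.30 in NN (SD, n = 4 each), a ratio of 0.892 with a 95% interval of 0.603 to 1.32 (log2 fold change −0.16, SE 0.249, limma adjusted p = 1). Without NB 8 the log2 fold change was 0.0408, so its sign rested on that array. The values also differed along the slide. Arrays in slide columns 1 and 2, samples 1 to 4, read 3.96 to 4.37. Those in columns 3 and 4, samples 5 to 8, read 3.20 to 3.96. Slide column and sample number run together, and the part of either in the spread of Cd8a was not tested.

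The Cd8a signal was 9.2 to 20.7 times the 75th percentile of its array. Cd8b1, which encodes the beta chain that pairs with CD8A on cytotoxic T cells and was named after its values were seen, lay between −1.64 and −1.32 on the 8 arrays. Its SD between arrays of the same genotype was 0.0979, against 0.41 for Cd8a. NB 8, the lowest array for Cd8a, was among the 3 highest for Cd8b1, at −1.40, and NN 1, the highest for Cd8a, read −1.43 for Cd8b1. The log2 fold change of Cd8b1 was 0.06 (SE 0.0843, limma adjusted p = 1). Whether the Cd8a probe reads transcripts other than Cd8a was not tested.

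**Figure D2:**
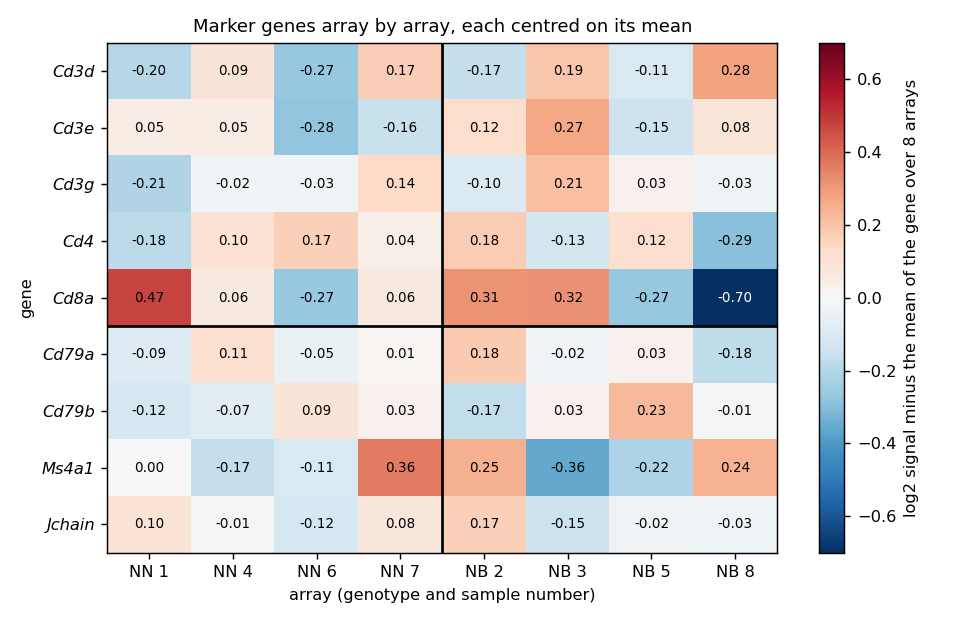
Log2 signal of each of the 9 genes (rows) on each array (columns), minus the mean of that gene over the 8 arrays, with red above and blue below that mean. The strongest colours belong to Cd8a on NN 1 and NB 8, and neither the NN nor the NB columns share a colour across genes.

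Among the B cell genes, Cd79a and Cd79b encode the paired signalling chains of the B cell receptor. Cd79a read 2.20, 2.40, 2.24 and 2.30 on NN 1, 4, 6 and 7, and 2.47, 2.27, 2.32 and 2.11 on NB 2, 3, 5 and 8. The NB arrays held both the highest and the lowest value. The means of 2.29 ± 0.15 in NB and 2.28 ± 0.09 in NN (SD, n = 4 each) were nearly equal, with a ratio of 1.01 and a 95% interval of 0.868 to 1.17 (log2 fold change 0.01, SE 0.094, limma adjusted p = 1).

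Cd79b read −1.64, −1.59, −1.43 and −1.49 on the NN arrays and −1.69, −1.49, −1.29 and −1.53 on the NB arrays, in the same order. NB 2, the highest array for Cd79a, was the lowest for Cd79b, so the probe signals of these paired chains did not follow each other across the arrays. The Cd79a signal was 4.32 to 5.53 times the 75th percentile of its array, and that of Cd79b 0.311 to 0.409 times. Whether the Cd79a probe reads transcripts other than Cd79a was not tested. The means were −1.5 ± 0.16 in NB and −1.54 ± 0.09 in NN (SD, n = 4 each), a ratio of 1.03 with a 95% interval of 0.88 to 1.2 (log2 fold change 0.04, SE 0.0995, limma adjusted p = 1).

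Ms4a1, the gene of the B cell surface protein CD20, was the most variable of the 4. It read −4.42, −4.59, −4.53 and −4.06 on NN 1, 4, 6 and 7, and −4.17, −4.78, −4.64 and −4.18 on NB 2, 3, 5 and 8. NN 7, NB 2 and NB 8 stood above the other 5 arrays, which again mixed the genotypes. The means were −4.44 ± 0.32 in NB and −4.40 ± 0.24 in NN (SD, n = 4 each), a ratio of 0.97 with a 95% interval of 0.736 to 1.28 (log2 fold change −0.04, SE 0.175, limma adjusted p = 1).

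Jchain, the plasma cell gene, was the steadiest of the 9. It read −1.68, −1.79, −1.90 and −1.70 on NN 1, 4, 6 and 7, and −1.61, −1.93, −1.80 and −1.81 on NB 2, 3, 5 and 8. The means were −1.79 ± 0.13 in NB and −1.77 ± 0.10 in NN (SD, n = 4 each), a ratio of 0.987 with a 95% interval of 0.854 to 1.14 (log2 fold change −0.02, SE 0.0916, limma adjusted p = 1). NB 2 was highest for Jchain and for Cd79a, and NB 3 lowest for Jchain and for Ms4a1.

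The 95% intervals state what size of difference these arrays leave room for. For the 3 CD3 genes the upper bounds were 1.22-fold to 1.35-fold higher in NB. For Cd79a, Cd79b and Jchain the bounds lay between ratios of 0.854 and 1.2. Cd8a left room for the largest decrease, to a ratio of 0.603, and Ms4a1 for one to 0.736. These bounds hold for probe signal, in the fit without the slide column as a block. Ms4a1 was dim, at percentiles 28.6 to 35.7 of all probes on the arrays, and Cd3g lay at 37.8 to 42.2. How closely signal this low follows the amount of RNA was not tested, so real differences in these genes may be larger than the bounds.

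**Figure D3:**
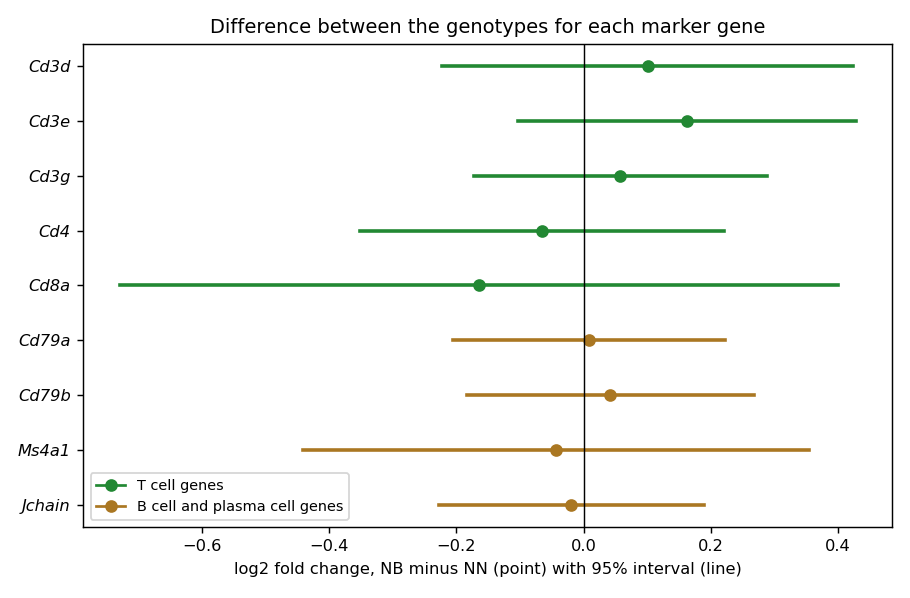
Log2 fold change between the genotypes (NB minus NN, points) with its 95% confidence interval (lines) for the T cell genes (green) and the B cell and plasma cell genes (brown). Every interval includes 0, and that of Cd8a is the widest.

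The spread between arrays of the same genotype placed the genes apart from each other. Over all features the median SD was 0.172 on the log2 scale. Jchain (0.115), Cd79a (0.121), Cd79b (0.133), Cd3g (0.137) and Cd3e (0.169) lay below it. Cd4 (0.187), Cd3d (0.218), Ms4a1 (0.28) and Cd8a (0.41) lay above it, with Cd8a above 91.4% of all features.

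**Figure D4:**
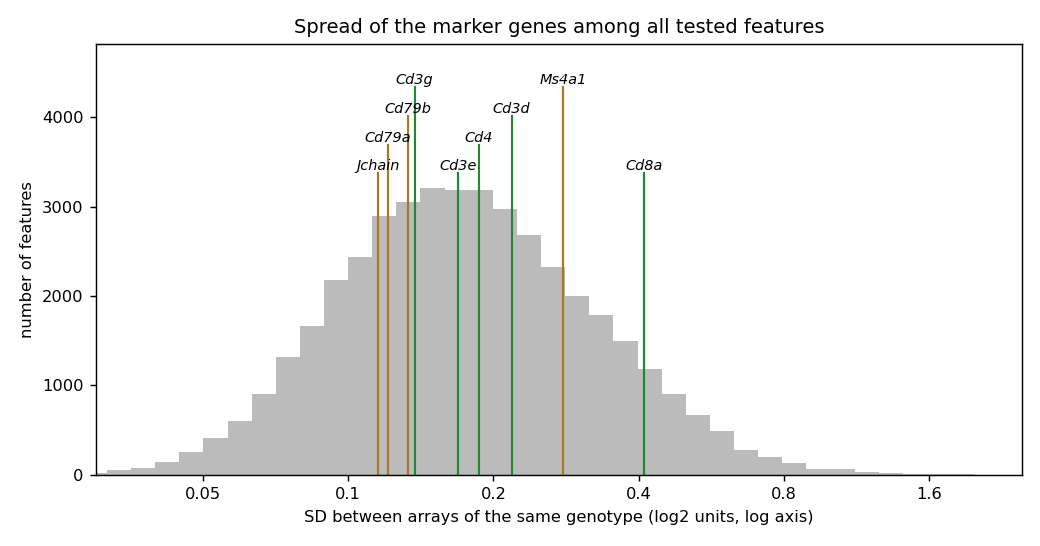
Number of tested features (grey bars) by the SD between arrays of the same genotype, in log2 units on a log axis, with T cell genes (green) and B cell genes (brown) marked. Jchain lies furthest to the left at 0.115 and Cd8a furthest to the right at 0.41.

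Read array by array, no sample lay above the mean of every marker gene. After each gene was centred on its mean, the average of the 5 T cell genes was highest on NB 3 (0.17) and lowest on NN 6 and NB 8 (−0.13 each), with NB 5 at −0.07, NN 1 at −0.01, NN 7 at 0.05, NN 4 at 0.06 and NB 2 at 0.07. Without Cd8a, a choice made after its values were seen, NB 3 remained highest at 0.14 and NB 8 moved to 0.01, while NN 1 became the lowest at −0.14. The average of the 4 B cell genes was highest on NN 7 (0.12) and NB 2 (0.11) and lowest on NB 3 (−0.13), the array with the highest T cell average. On NN 7 all 4 B cell genes and 4 of the 5 T cell genes lay above their own means. On NB 3 only 1 B cell gene but 4 T cell genes did, and on NN 6 only 1 of each kind.

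Other genes of the T cell receptor pathway and of T cell identity were set beside the 5 markers. Of 34 listed genes, 32 were measured well enough to test, 15 with a positive and 17 with a negative log2 fold change, at a median of −0.0034. None passed the limma test (0 called higher, 0 called lower), and 1, Cd28, had an unadjusted p under 0.05 (1.69% of all features did). Cd28, which encodes the costimulatory receptor of T cells, was higher on all 4 NB arrays than on any NN array, as were 0.421% of all features (log2 fold change 0.31, SE 0.103, limma adjusted p = 1). For Cxcr6, a chemokine receptor gene of liver-resident T and natural killer T cells, the log2 fold change was 0.43 (SE 0.324) with NB 8 highest at −2.25, and the other arrays lay between −4.03 and −3.14. In the other direction, the adaptor gene Skap1 had −0.13 (SE 0.13) and the chemokine receptor gene Cxcr3 −0.08 (SE 0.0919). Of genes named after their values were seen, Cd247, the zeta chain that completes the receptor, had 0.10 (SE 0.0982), and the kinase gene Lck, which starts its signal, had 0.0072 (SE 0.112).

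Of 34 further B cell and plasma cell genes, 33 were tested, 20 with a positive and 13 with a negative log2 fold change, at a median of 0.0177. None passed (0 called higher, 0 called lower), and 1, Cd72, had an unadjusted p under 0.05 (1.69% of all features did). Cd72, an inhibitory co-receptor gene of B cells, showed 0.44 on the log2 scale (SE 0.185, limma adjusted p = 1), and its values overlapped. The scaffold gene Bank1 had 0.15 (SE 0.0906). Of 12 immunoglobulin genes sought by symbol, only the surrogate light chain gene Igll1 was matched, at −0.11 (SE 0.158), and the other 11 were not analysed here.

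Markers of the other leukocytes that a liver sample holds were set beside these values. Of 10 pan-leukocyte genes, 9 had positive log2 fold changes (median 0.125), against 45.9% of all features. The list's centred average ran from 0.0144 to 0.101 on NB arrays and from −0.105 to 0.00428 on NN arrays. The averages of this and the other lists were not tested, and no share over comparable lists was taken. Of 12 Kupffer cell genes, which mark the resident macrophages of the liver, 11 were positive (median 0.176), and of 14 natural killer and innate lymphoid genes 9 were (median 0.0723). The centred average of the Kupffer list ran from −0.137 to 0.205 on NB arrays and from −0.27 to 0.0634 on NN arrays, and that of the natural killer list from −0.0119 to 0.144 and from −0.0859 to −0.00935. Neutrophil genes (6 of 9 positive, median 0.0183), dendritic cell genes (6 of 9, median 0.0348) and erythroid and platelet genes (8 of 9, median 0.0531) also included no call, as did the hepatocyte genes (3 of 10 positive, median −0.0204). In all of these lists 0 genes passed the limma test, and 1 each in the pan-leukocyte (Cytip), Kupffer (Csf1r), natural killer (Klrb1a) and dendritic (Flt3) lists had an unadjusted p under 0.05, as had Cps1 in the hepatocyte list and 1.69% of all features. Csf1r, the growth factor receptor gene of macrophages, was higher on all NB than on all NN arrays, as were 0.421% of all features (log2 fold change 0.46, SE 0.0784, limma adjusted p = 1). Where Csf1r and the other genes of these lists lie relative to the segment that sets the genotypes apart was not examined. A local effect of that segment on a gene and a change in cells cannot be told apart here. The part of these cell types in the values of the T and B genes was not tested.

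**Figure D5:**
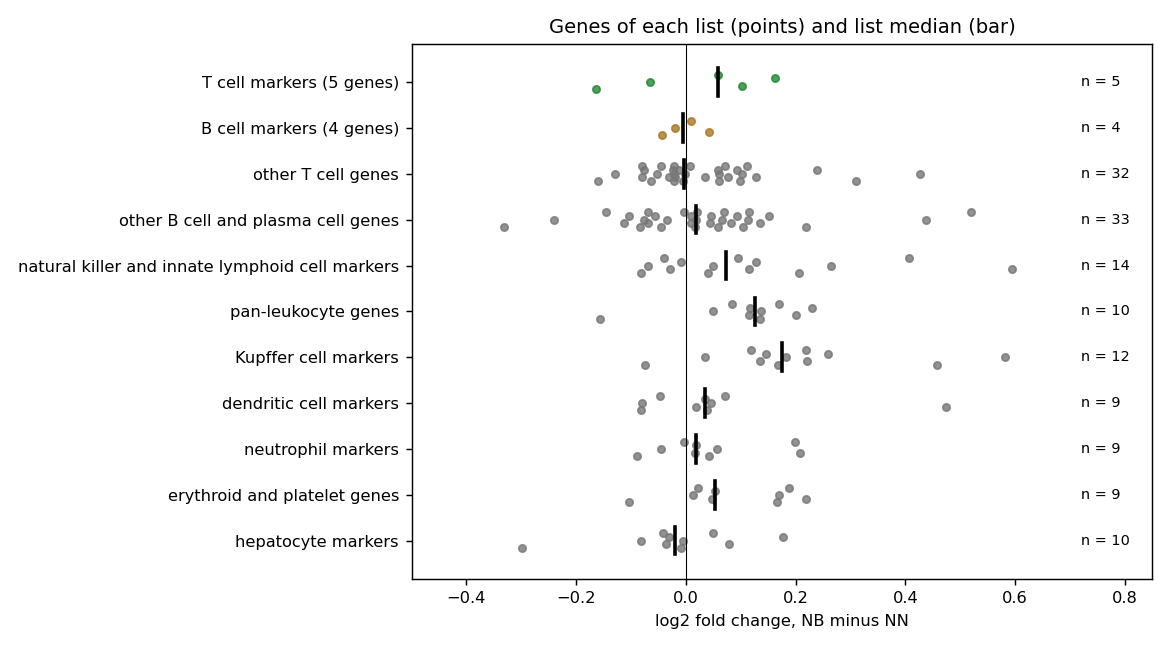
Log2 fold change (NB minus NN) of each tested gene (points) and the median (black bar) for the T and B marker genes and for the other lists, with the number of genes at the right. The T and B markers lie between −0.16 and 0.16, with medians of 0.0581 and −0.00508.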

How the data were processed

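The deposited scanner files give the intensity of each spot on 8 one-colour arrays (Cy3). Per the file headers they were made with Agilent Feature Extraction 11.5.1.1, whose processed signal is background-subtracted and spatially detrended but not normalized between arrays, while the submitters' processing notes name version 9.1. The headers name mm9, and no coordinates are given here. The authors' value table holds linear intensities whose 8 columns have the same sorted values; its scale is not stated.

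Here spots with outlier marks were left out (248 to 621 probes per array), log2 processed signal was averaged per probe, and the 75th percentile of each array was subtracted. Of 60273 probes, 31064 were named through RefSeq accessions (GRCm38.p6 table). A probe was kept if at least 4 of 8 arrays had it well above background (46848 were), and the brightest probe stood for a gene. NB was compared with NN with limma 3.58.1 in R 4.3.3 (lmFit, eBayes, two-sided, Benjamini-Hochberg over 42982 features, threshold 0.05). The steps were tested on simulated data. The number of arrays limits the precision.

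The marker genes and lists were chosen with earlier results of these data known. Named genes were the 9 markers and, of each other list, the 2 of smallest p among the positive and among the negative differences; others are said to have been named after their values were seen. The 3 genes with the array pattern most like the T and the B averages were also named, and some named items are not reported here. Alternatives changed the scaling, background correction, filter, probe summary, variance model, array weights, slide row and column, and left out each array in turn. No sample number occurs in both genotypes, so none pairs samples.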

Additional observations from a re-analysis of the deposited data

Results flagged for a closer look

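Among 88 sets of 4 arrays of 1 genotype (the 9 marker genes, the second Cd4 probe and the named genes of the other lists), 4 held 1 array far from the other 3, or 4.55%, where chance gives about 5%. Of the 20 sets of the marker genes and the second Cd4 probe, 1 did. The second Cd4 probe was low on NB 5 at −7.4, against −5.12 to −4.9 on the other NB arrays, and that value was not well above background. The Kupffer cell gene Timd4 was high on NN 6 at −1.31 (other NN arrays −1.49 to −1.46). The dendritic cell gene Clec9a was low on NB 8 at −1.94 (others −1.76 to −1.74). The hepatocyte gene Cps1, of the urea cycle, was low on NB 3 at 5.54 (others 5.92 to 5.98).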

How the results depend on the processing

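None of the 9 genes was called under any of 19 alternatives each (lowest limma adjusted p 0.9999). Cd3d and Cd3e kept their sign throughout (0.0159 to 0.176 and 0.099 to 0.239). With 1 array left out, Cd3g ranged from −0.0026 to 0.114, Cd4 from −0.136 to 0.0197, Cd8a from −0.298 to 0.0408, Cd79a from −0.0487 to 0.0697, Cd79b from −0.0271 to 0.105, Ms4a1 from −0.135 to 0.0701 and Jchain from −0.0772 to 0.0282, and each changed sign at least once. Cd3g was also −0.0236 with normexp, and Cd4 was 0.0861 with the mean of its probes and 0.237 with its second probe, a setting added after the data were seen; both use a probe not well above background on 3 of 8 arrays, so the sign they give is not well measured. The T and B medians ranged from −0.0026 to 0.114 and from −0.063 to 0.037 with 1 array left out. Over all features, calls numbered 3 (5 with the mean of probes, 2 to 3 with 1 array left out). Features at an unadjusted p under 0.05 numbered 728 (1193 with array weights, 1228 with slide columns as a block, 625 to 1453 with 1 array left out, of these 1453 without NB 2 and 1194 without NB 8). A block by sample number could not be fitted because the genotypes share no numbers, so the slide column, with 1 array of each genotype, was the block tried.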

Other observations

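Cd8a was closely correlated across the arrays with a larger share of genes than any other marker was. Over the 8 arrays, 6.15% of 22614 named genes outside these lists, all well above background on every array, had a Pearson r above 0.8 with Cd8a, and Cacng6, a calcium channel subunit gene, was closest at 0.995. The share was 2.95% for Cd79a, 1.82% for Cd3e, 1.08% for Cd3g and 0.438% for Ms4a1, and these shares by gene were added after the data were seen. With the average of the 5 T cell genes, Pdc (0.969), a phosducin gene known from photoreceptors, and Otof (0.966), known from hair cells of the ear, were among the 3 closest genes. With the average of the 4 B cell genes the closest were Cnih1 (0.975), Gm30700 (0.962) and Tubgcp4 (0.961). These are among the highest values over 22614 genes over only 8 arrays and describe these arrays alone.

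The natural killer cell receptor gene Klrb1a read −5.21, −5.17, −5.27 and −5.09 on NB 2, 3, 5 and 8 and −5.89, −5.88, −5.82 and −5.53 on NN 1, 4, 6 and 7. It was well above background on 6 of 8 arrays, not on NN 6 and NN 7. Every NB value exceeded every NN value, as for 0.421% of all features (log2 fold change 0.59, SE 0.0994, limma adjusted p = 1). Of the same list, Klrk1 had −0.07 (SE 0.132) and Gzmb −0.04 (SE 0.0911). Flt3, a growth factor receptor gene of dendritic cells, likewise had all NB arrays above all NN arrays (log2 fold change 0.47, SE 0.103, limma adjusted p = 1), and of its list Bst2 had −0.08 (SE 0.0985) and Ccr9 −0.08 (SE 0.143). Klrb1a and Flt3 had the smallest p of their lists.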
